A study of Mus musculus with 8 samples.

Results

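The genes described here carry newly made proteins from the endoplasmic reticulum (ER) to the Golgi apparatus and bring vesicle components back. They are 50 genes named in a fixed list of coat subunits, cargo receptors, small GTPases, tethers and fusion proteins, and they were found by gene name in a table of 11789 genes. All 50 were in the table. The data are RNA sequencing of pancreas from mice aged 6 weeks, with 4 mice in each of 2 genotypes. The Daxx deleted mice carried Daxx fl/fl with a Pdx1-Cre transgene (labelled Daxx fl/fl Pdx1-Cre Tg), and the other mice were labelled wild type. Daxx is a histone chaperone that deposits the histone variant H3.3. Pdx1-Cre is active in the pancreatic progenitors that give rise to acinar, duct and islet cells, and not in most of the vessels, stroma or immune cells of the organ. The labels do not say whether the wild-type mice carried Cre or floxed alleles, and no group is labelled as having Cre alone, so an effect of Cre cannot be told apart from loss of Daxx. Each genotype had 2 females and 2 males, but the sex of each library is not labelled. The tissue was sequenced in bulk, so fewer cells of a type and less RNA per cell cannot be told apart.

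Secretory proteins leave the ER in vesicles coated by COPII. The GTPase Sar1 recruits the inner coat of Sec23 and Sec24, which selects cargo, and then the outer coat of Sec13 and Sec31. Vesicles coated by COPI, recruited by the GTPase Arf1, return escaped ER proteins and cargo receptors from the Golgi. Pancreatic acinar cells secrete large amounts of digestive enzymes, and this route carries almost all of that protein.

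The libraries held between 7705789 and 10517508 reads assigned to genes, and the 20 most abundant genes took 74.7 to 80.3% of them. Of these reads, 21037 to 35787 per library fell on the 50 transport genes, and no member had fewer than 29 reads in any library. Values are normalized read counts, which are reads divided by a size factor for each library. Daxx itself (chr17:33909414-33915590, GRCm38) had 26.8, 23.3, 29.2 and 32.5 normalized counts in the Daxx deleted libraries, against 39.7, 58.7, 46.7 and 45.2 in the wild-type libraries. Its genotypes did not overlap, and the Daxx deleted mean of 28.0 ± 3.88 was 58.8% of the wild-type mean of 47.6 ± 8.02 (SD, n = 4 each). The log2 fold change was −0.74 (SE 0.20, exact permutation p = 0.0286, the smallest that 4 against 4 allows), but limma's adjusted p over all tested genes was 0.9997. These values come from 26 to 31 reads per Daxx deleted library and 45 to 51 per wild-type library, and the deposited counts do not separate the floxed exons from the rest of the gene.

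Acinar markers summed to 1920422, 1866670, 2124513 and 2535798 normalized counts in Daxx deleted libraries and to 2283703 to 2443168 in wild-type libraries. All but the last Daxx deleted sum lay below every wild-type sum, and the last lay above them. All 7 acinar markers (Cpa1, Cpb1, Cela1, Pnlip, Ptf1a, Bhlha15 and Rbpjl) were present, as the pancreas label requires. The 6 ductal markers summed to 460 to 516 in Daxx deleted and 433 to 511 in wild-type libraries, and the 7 islet markers to 1633 to 7397 and 2059 to 7643. The 6 stromal markers summed to 3332 to 5497 in Daxx deleted and 3089 to 4855 in wild-type libraries, and the 5 endothelial markers to 535 to 698 and 548 to 713. The 4 leukocyte markers used here summed to 38.8 to 172 in Daxx deleted and 39.8 to 93.4 in wild-type libraries, and the 4 adipocyte markers to 64.0 to 536 and 117 to 297. The gut marker Vil1 lay between 2.499 and 17.7 in Daxx deleted and between 10.4 and 18.6 in wild-type libraries, and Cdx2 and Fabp2 were not in the table. Of the log2 fold changes (Daxx deleted over wild type) of the 7 acinar markers, 1 lay above and 6 below 0, with a median of −0.11. For the 7 islet markers, 1 lay above and 6 below 0, with a median of −0.39. Medians were −0.01 for the 5 tested ductal markers, 0.05 for the 6 stromal markers and −0.07 for the 5 endothelial markers. They were 0.35 for the 3 tested leukocyte markers and −0.38 for the 4 adipocyte markers, and Vil1 had −0.63. No marker gene passed the adjusted threshold.

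Promoters of these genes are shown first because some of them share letters that the choice of members did not use. The sequence TGACGTGG belongs to the unfolded protein response element, which the ER stress factor XBP1 is known to bind. RefSeq windows on GRCm38.p6, from 250 bases before a gene's start to 50 bases after it, were matched for 44 of the 50 members; Tmed2, Lman1, Tmed11, Kdelr2, Tmed7 and Arcn1 had no match by name. These 8 letters, on either strand, occurred in 8 of the 44 windows (18.2%), those of Sec23a, Sec24d, Copb1, Copb2, Arf1, Gbf1, Kdelr3 and Stx5a. The share was 1.06% of the 8285 tested genes that have a window (88 genes) and 0.714% of the 27025 genes in the whole promoter table. In 5 of the 8 members the motif began before the RefSeq start, at 26 bases in Sec24d, 28 in Copb1, 7 in Copb2, 30 in Kdelr3 and 12 in Gbf1. The gene coordinates given elsewhere are those of GENCODE M21, which begin further upstream in most of these. By GENCODE the motifs of Sec24d, Copb1, Copb2 and Gbf1 lay inside the gene, and only that of Kdelr3 lay before it. The stretches of those 5 promoters from 80 bases before the RefSeq start to its first base are given 5′ to 3′ on the gene's strand, with the motif in capitals.
Sec24d, chr3:123267416-123267496 (+): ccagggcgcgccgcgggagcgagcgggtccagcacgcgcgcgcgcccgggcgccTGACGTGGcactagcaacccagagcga
Copb1, chr7:114254680-114254760 (−): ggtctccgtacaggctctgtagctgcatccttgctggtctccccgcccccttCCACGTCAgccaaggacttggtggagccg
Copb2, chr9:98563651-98563731 (+): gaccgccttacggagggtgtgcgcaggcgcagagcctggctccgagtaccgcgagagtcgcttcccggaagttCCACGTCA
Kdelr3, chr15:79516328-79516408 (+): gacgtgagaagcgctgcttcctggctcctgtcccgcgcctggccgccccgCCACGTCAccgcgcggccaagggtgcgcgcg
Gbf1, chr19:46152478-46152558 (+): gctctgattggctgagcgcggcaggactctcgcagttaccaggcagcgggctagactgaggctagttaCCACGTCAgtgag

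The motif stood as TGACGTGG in Sec24d and as its reverse complement CCACGTCA in the other 4. The promoters that hold it belong to an inner coat subunit of COPII (Sec24d), both beta subunits of COPI (Copb1 and Copb2), a receptor that returns ER proteins bearing the KDEL tail (Kdelr3) and the exchange factor that activates Arf1 (Gbf1). In Arf1, Sec23a and Stx5a the letters lay after the RefSeq start, on both strands of Stx5a. Of 92 other genes of the same route with a window, 2 held the motif (2.17%), Scfd1 and Sec16b. The cAMP response element TGACGTCA occurred in 2 of the 44 member windows (4.55%, Cope and Gosr2), close to its share of 3.72% among tested genes. The longer ER stress elements ERSE and ERSE-II occurred in none of the 44, and in 0.181% and 0.0966% of tested genes. A match of letters is not a measured binding site.

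The transport genes were among the more abundant transcripts of the pancreas. As normalized counts per kilobase of merged exons, 40 of the 50 stood at or above percentile 90 of the 11781 genes with an annotated length, and 49 stood above the median gene. Their median rank was at percentile 93.4, and 94.5 when the longest transcript set the length. Tmed6, a p24 family protein known to be abundant in pancreas, was the highest at 2715 ± 302 per kilobase in Daxx deleted and 2708 ± 503 in wild-type libraries (SD, n = 4 each), at percentile 99.7. Mcfd2, the calcium-binding partner of the cargo receptor Lman1, followed with 444 ± 118 per kilobase in Daxx deleted and 383 ± 43.2 in wild-type libraries. Tmed3 had 383 ± 63.5 in Daxx deleted and 411 ± 10.3 in wild-type libraries, and Arf1 had 364 ± 17.9 and 393 ± 18.9. Tmed11 had 380.0 ± 157.8 in Daxx deleted and 377 ± 207 in wild-type libraries. The order of Mcfd2, Tmed3, Arf1 and Tmed11 was not resolved on merged exons, since they differ by less than their spread, whereas Tmed6 lay above all of them in every library. On the longest transcript their means over all libraries were 716 per kilobase for Tmed3, 573 for Mcfd2, 397 for Arf1 and 379 for Tmed11. Their order thus depends on the length used. At the low end, Tmed5 had 12.2 ± 2.15 per kilobase in Daxx deleted and 10.4 ± 2.07 in wild-type libraries, at percentile 46.4. Sec23a (15.7 ± 1.84 in Daxx deleted and 18.1 ± 2.21 in wild-type libraries) came next, followed by Sec24a and Sec24b. On the length of the longest transcript, Tmed5 stood at percentile 59.1 with a mean over all libraries of 22.9 per kilobase, and Sec23a was lowest at 19.9, so the order of these genes and the place of Tmed5 below the median gene depend on the length used.

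**Figure D1:**
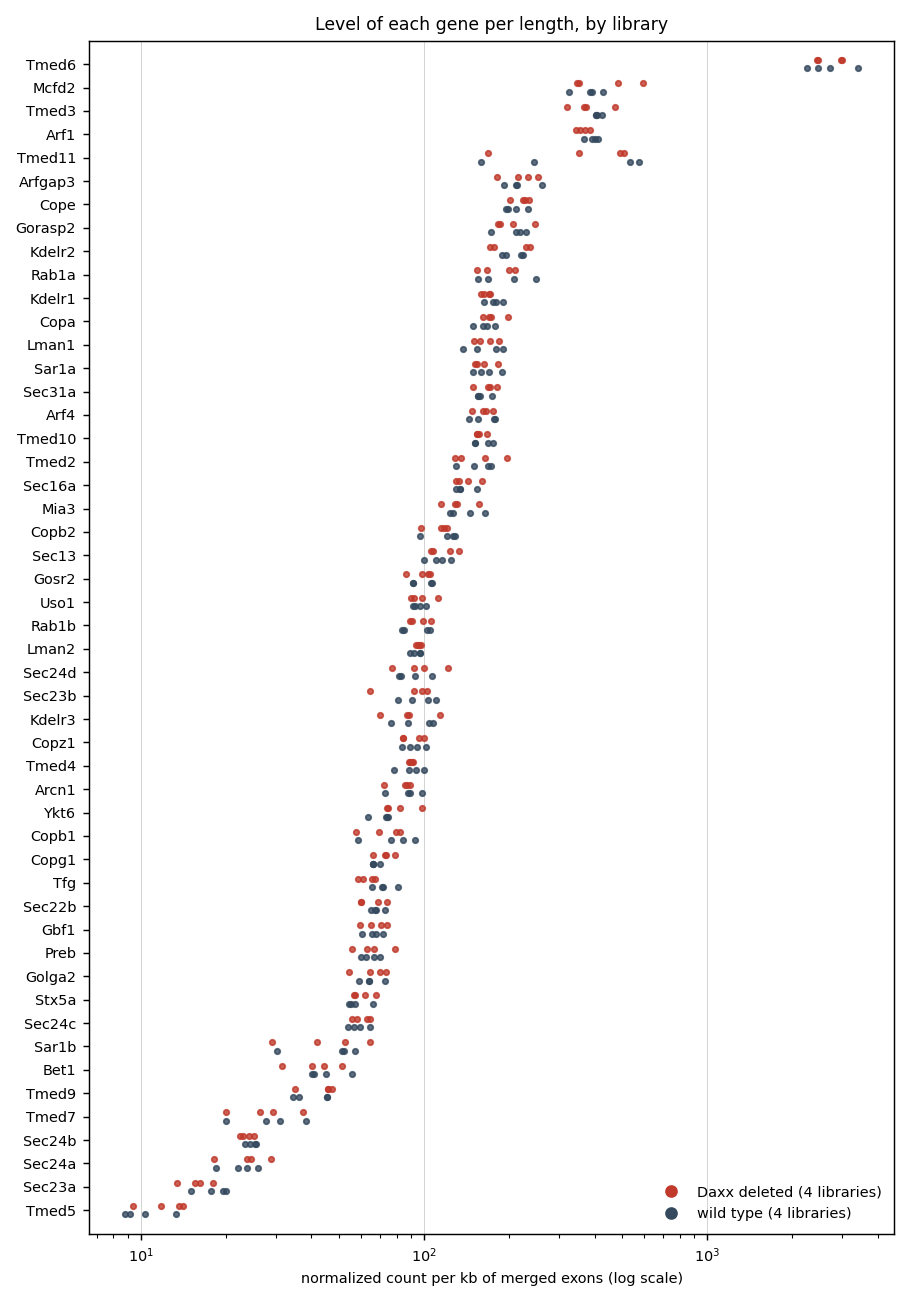
Level of each of the 50 transport genes per length, as normalized counts per kilobase of merged exons on a log axis, with 1 point per library coloured by genotype and genes ordered by their mean level. Tmed6 stands apart at 2715 ± 302 in Daxx deleted and 2708 ± 503 in wild-type libraries (SD, n = 4 each), and Tmed5 is lowest on this length, at 12.2 ± 2.15 and 10.4 ± 2.07, whereas Sec23a is lowest on the longest transcript.

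Where a step of the route has several closely related genes, their RNA levels in the pancreas were unequal. Sec23b, the Sec23 form whose loss in mice damages the pancreas, made up 84.7 ± 3.28% of Sec23 transcripts per kilobase in Daxx deleted and 84.2 ± 1.51% in wild-type libraries, with Sec23a as the rest. Among the 4 cargo-binding Sec24 proteins, Sec24d held 47.3 ± 3.88% in Daxx deleted and 46.2 ± 2.06% in wild-type libraries. Sec24c followed with 29.5% in Daxx deleted and 29.8% in wild-type libraries. Sec24a had 11.5% in both genotypes, and Sec24b had 11.6% in Daxx deleted and 12.6% in wild-type libraries. On the longest transcript Sec24a had 12.4% in both genotypes, and Sec24b had 9.08% in Daxx deleted and 9.82% in wild-type libraries. The order of Sec24a and Sec24b thus depends on the length used. Sar1a made up 77.8 ± 6.01% of the Sar1 pair in Daxx deleted and 78.0 ± 3.49% in wild-type libraries. Sec31a held 95.1% of the Sec31 pair in Daxx deleted and 95.4% in wild-type libraries. Sec16a, the scaffold of ER exit sites, held 96.7 ± 2.14% of the Sec16 pair in Daxx deleted and 94.3 ± 0.679% in wild-type libraries.

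In the COPI coat, Copg1 made up 81.5 ± 2.26% of the gamma pair in Daxx deleted and 77.4 ± 3.08% in wild-type libraries. Of the zeta pair, the member Copz1 was the minor form, since Copz2, which is not among the 50, held 69.0 ± 2.51% in Daxx deleted and 70.2 ± 2.53% in wild-type libraries. Rab1a, a GTPase that brings tethers to arriving vesicles, held 65.2% of the Rab1 pair in Daxx deleted and 67.0% in wild-type libraries. Kdelr2 led the 3 KDEL receptors with 44.1% in Daxx deleted and 43.2% in wild-type libraries, ahead of Kdelr1 with 36.4% and 37.2%. Measured on the longest transcript, however, Kdelr1 and Kdelr2 were nearly equal at 40.1% and 41.5% in Daxx deleted and 40.9% and 40.6% in wild-type libraries, so their order depends on the length used. Tmed6 held 86.1% of the gamma subfamily of p24 proteins in Daxx deleted and 85.2% in wild-type libraries. Tmed11 held 71.5 ± 11.2% of the alpha subfamily in Daxx deleted and 70.2 ± 14.6% in wild-type libraries, the widest spread of these shares. On the longest transcript, Sec23b held 90.4% in Daxx deleted and 90.1% in wild-type libraries, Copg1 87.5% and 84.5%, and Tmed6 78.1% and 76.7%. The size of a share thus depends on the length used, but Sec23b, Copg1 and Tmed6 led their families on both lengths. Of 29 shares in 11 families, none differed between genotypes in an exact two-sided permutation test. The shares of a pair of genes mirror each other and have the same p, so the 29 tests are not all separate comparisons. The smallest p was 0.0857, for Tmed5, and the smallest after Benjamini-Hochberg adjustment over the 29 was 0.83. With so few relabellings, a single share or pair could not have passed the adjusted threshold over the 29 at any difference. The adjusted values thus cannot decide whether a share differed, and the shares are not shown to be equal.

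**Figure D2:**
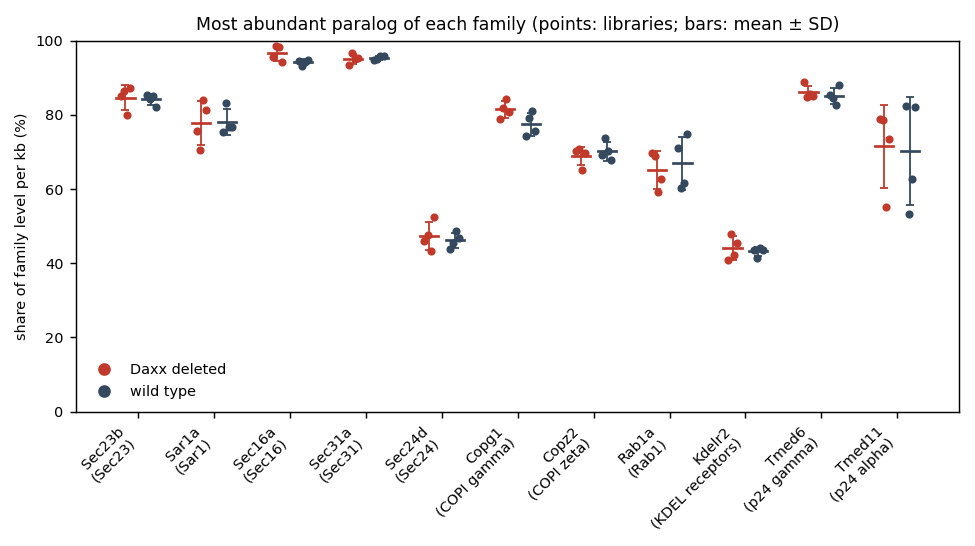
Share of the most abundant gene of each of 11 families in the family's normalized counts per kilobase, in percent, with 1 point per library, a line for the group mean and whiskers for the SD, Daxx deleted left of wild type. Sec23b at 84.7 ± 3.28% in Daxx deleted and 84.2 ± 1.51% in wild-type libraries is typical of the overlap of the genotypes, and Tmed11 has the widest spread (SD, n = 4 each).

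Against this background, the comparison of the genotypes asked whether loss of Daxx from the pancreas was accompanied by other levels of the transport genes. None of the 50 members passed limma's test at an adjusted p of 0.05, where 0% of the 10468 tested genes (0 genes) passed. At an unadjusted p of 0.05 the members again gave 0, against 302 of all tested genes (2.88%). On reads recovered from the table, edgeR's quasi-likelihood test gave 0 members and 2.86% of all tested genes at an unadjusted p of 0.05, and DESeq2 gave 0 members and 2.09%. After adjustment edgeR called 0 of 10468 genes and DESeq2 called 1, which is no member. No member had genotypes that did not overlap, against 1.87% of all tested genes. Every member's adjusted p was 0.9997, and the smallest unadjusted p was 0.145, for Tfg.

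The estimates were evenly spread around no change, with 25 members above 0 and 25 below. Their median log2 fold change (Daxx deleted over wild type) was 0.00, beside −0.01 for all tested genes. With libraries scaled to equal totals instead of the deposited size factors, 47 of the 50 lay above 0, but the median of all genes then moved to 0.11, and 28 of the 50 lay above that median, beside 27 above the median of all genes with the deposited size factors. The median size of a member's change, in either direction, was 0.06 on the log2 scale, against 0.12 over all tested genes and 0.08 over the 4103 genes with a mean of at least 100 normalized counts. The 95% confidence interval lay within a change of 1.5-fold either way for 48 of the 50 members, the exceptions being Tmed5 and Tmed11. The median half-width of the interval was 0.26 on the log2 scale, against 0.41 for all tested genes. Changes smaller than these widths were not detectable with 4 mice per genotype. Larger changes could also go uncalled after adjustment over all tested genes, as did that of Daxx at −0.74 (limma's adjusted p = 0.9997). The 50 genes together summed to 30159, 29052, 27758 and 32138 normalized counts in the Daxx deleted libraries and 29483, 27437, 29875 and 31684 in the wild-type libraries. The summed levels overlapped, with the lowest in wild type and the highest in Daxx deleted.

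**Figure D3:**
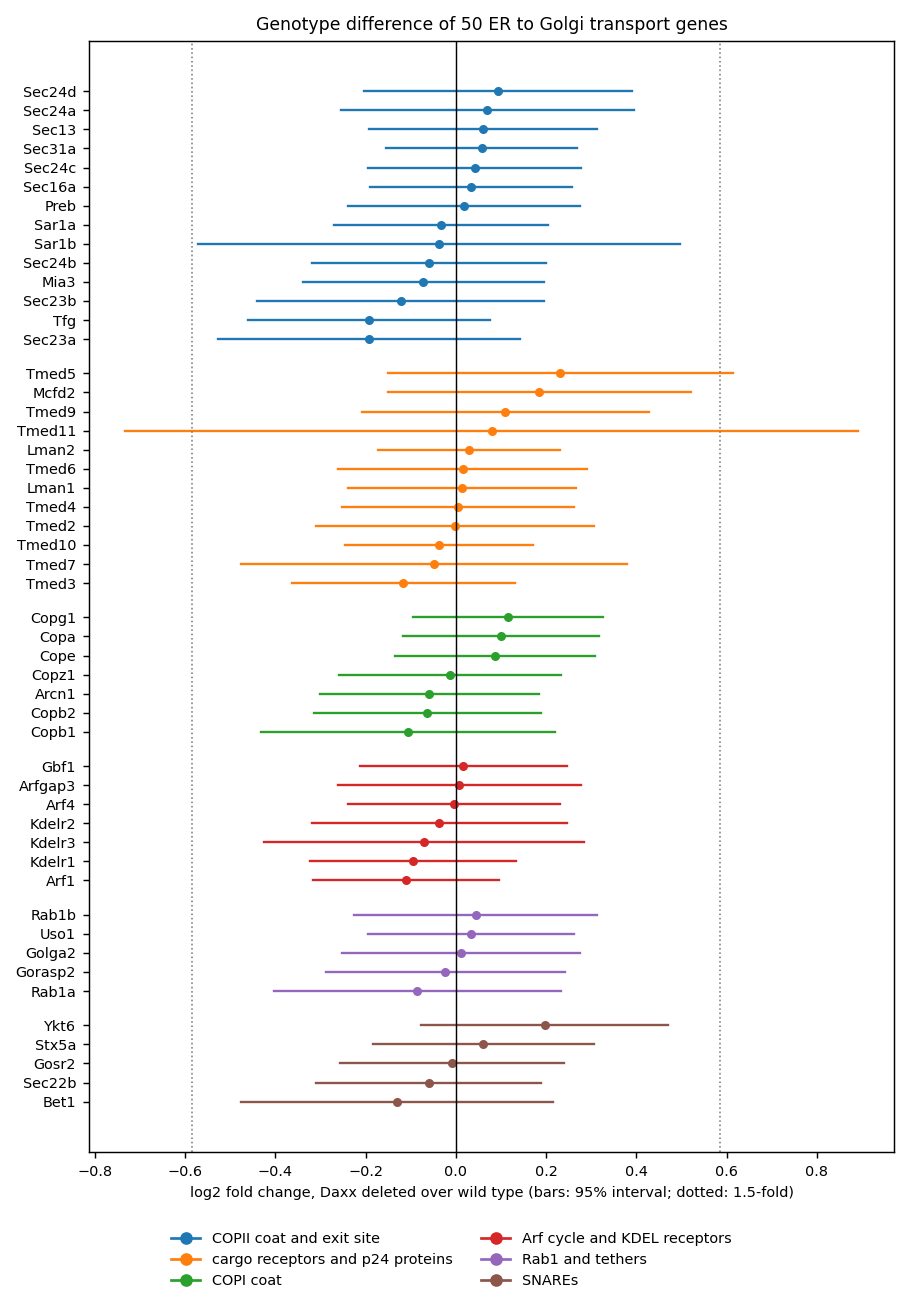
Log2 fold change of each of the 50 members (Daxx deleted over wild type, log2 of normalized count + 1) with its 95% confidence interval from limma, grouped by role, n = 4 libraries each. Every interval crosses 0, and those of Tmed11 (−0.73 to 0.89) and Tmed5 (−0.15 to 0.61) extend past a 1.5-fold change.

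The 8 members with the XBP1-type motif had log2 fold changes from −0.19 to 0.09 with a median of −0.07. The 36 members whose window lacked it ranged from −0.19 to 0.23 with a median of 0.01. No member of either set passed the test.

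The 14 genes of the COPII coat and its exit sites had log2 fold changes from −0.19 to 0.09, with 7 above and 7 below 0. Tfg (chr16:56690332-56717450), which organizes COPII carriers at exit sites, had 151, 153, 139.6 and 134 normalized counts in Daxx deleted libraries, against 185, 150.0, 163 and 165 in wild-type libraries. The Daxx deleted values were mostly the lower ones, but the genotypes overlapped through the wild-type value of 150.0. Its log2 fold change was −0.19 (SE 0.13, 95% interval −0.46 to 0.07, exact permutation p = 0.0857). Sec23a (chr12:58958383-59012017), the less used Sec23 form, had 86.7, 75.0, 78.1 and 65.1 in Daxx deleted libraries, against 85.5, 73.0, 94.5 and 96.5 in wild-type libraries. The ranges overlapped widely, and the log2 fold change was −0.19 (SE 0.16, exact permutation p = 0.20).

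Sec31a (chr5:100361649-100416234), the main outer coat protein, had the highest mean normalized count of the 14 over all libraries, ahead of Sec16a by less than their spread, with 1349, 1169.6, 1329 and 1427 in Daxx deleted libraries against 1245, 1227, 1365 and 1224 in wild-type libraries. The lowest of these 8 values and the highest were both in Daxx deleted mice, and the log2 fold change was 0.06 (SE 0.10). Sec23b (chr2:144556229-144590749) had 647, 622, 405 and 578 in Daxx deleted libraries, against 652, 510.0, 695 and 573 in wild-type libraries. Here the low values were those of Daxx deleted replicate 3 and wild type replicate 2, and the log2 fold change was −0.12 (SE 0.15). Sar1b, a GTPase whose human form is needed to secrete chylomicrons, had 66.1, 80.8, 36.5 and 52.5 in Daxx deleted libraries, against 65.2, 37.8, 64.3 and 71.7 in wild-type libraries. It was the most variable of the 14, with the same pair of libraries lowest, and its interval ran from −0.57 to 0.50. Sar1b lies head to head with the member Sec24a on chromosome 11, with 52 bases between the ends of the annotated genes. Sec24a had 308, 252, 194 and 262 in Daxx deleted libraries, against 277, 197, 236 and 253 in wild-type libraries, and its lowest values were in those libraries as well.

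The 12 cargo receptors and p24 proteins, which load cargo into vesicles, had log2 fold changes from −0.12 to 0.23, with 8 above and 4 below 0. Tmed5 (chr5:108106366-108132620) had 90.8, 105, 71.9 and 108 normalized counts in Daxx deleted libraries, against 79.3, 67.8, 70.1 and 103 in wild-type libraries. It had the largest estimate of the 50, a log2 fold change of 0.23 (SE 0.18, 95% interval −0.15 to 0.61, exact permutation p = 0.257), and both genotypes held low and high values. Mcfd2 (chr17:87254443-87265935) had 994, 983, 1367 and 1678 in Daxx deleted libraries, against 916, 1109, 1094 and 1209 in wild-type libraries. Its highest values were in Daxx deleted replicates 3 and 4, with the other 2 Daxx deleted values inside the wild-type range, and the log2 fold change was 0.18 (SE 0.16, exact permutation p = 0.40).

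Tmed6 (chr8:107061476-107065644) had 2581, 2143, 2131 and 2604 in Daxx deleted libraries, against 2372, 2142, 1956 and 2964 in wild-type libraries. The wild-type values enclosed the Daxx deleted ones, and the log2 fold change was 0.01 (SE 0.13). Lman1, the lectin that exports glycoproteins from the ER, had 1389, 1510.3, 1323 and 1627 in Daxx deleted libraries, against 1585, 1210.3, 1355 and 1674 in wild-type libraries. Its relative Lman2 was the steadiest of the 50, averaging 757 ± 11.1 in Daxx deleted and 743 ± 31.2 in wild-type libraries, a spread of 1.09-fold across all 8. Tmed11 (chr5:108777235-108795363) was the least steady, with 388, 375, 128 and 269 in Daxx deleted libraries, against 406, 121, 186 and 438 in wild-type libraries. Its 3.61-fold range lay within the genotypes, both of which held low and high libraries. Exons of Tmed11 overlap on the same strand those of Vmn2r8, which averaged 32.7 normalized counts, so some reads of the pair may be assigned to either gene.

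The 7 COPI coat subunits had log2 fold changes from −0.11 to 0.12, with 3 above and 4 below 0. Copg1 (chr6:87887814-87913595), a gamma subunit that binds cargo, had 727, 806, 799.8 and 870.4 in Daxx deleted libraries, against 725, 772, 728 and 726 in wild-type libraries. Of the Daxx deleted values 3 exceeded every wild-type value, but the other lay inside the wild-type range. The log2 fold change was 0.12 (SE 0.10, 95% interval −0.09 to 0.33, exact permutation p = 0.0857). Copa (chr1:172082529-172122330), the alpha subunit, had the most counts of the coat, with 1630.0, 1595, 1527 and 1866 in Daxx deleted libraries against 1569, 1405, 1519 and 1672 in wild-type libraries. The overlap was wide, and the log2 fold change was 0.10 (SE 0.10). The beta subunits Copb1 and Copb2 averaged 402 ± 63.2 and 716 ± 64.7 in Daxx deleted libraries, against 435 ± 82.0 and 750.0 ± 92.5 in wild-type libraries. Both were lowest in Daxx deleted replicate 3 and wild type replicate 2, like Arcn1, the delta subunit, which averaged 1245 ± 112 in Daxx deleted and 1299.7 ± 159.6 in wild-type libraries.

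Of the 7 genes of the Arf cycle and the KDEL receptors, 2 lay above and 5 below 0, with log2 fold changes from −0.11 to 0.02. Arf1 (chr11:59211412-59228270) had 721, 741, 805 and 776 in Daxx deleted libraries, against 839, 768, 819 and 861 in wild-type libraries. The lowest wild-type value fell below the 2 highest Daxx deleted values, and the log2 fold change of −0.11 (SE 0.10, exact permutation p = 0.0857) became 0.01 with equal library totals. Kdelr1 (chr7:45872772-45883732) had 298, 318, 321 and 304 in Daxx deleted libraries, against 306, 356, 329 and 337 in wild-type libraries. It too overlapped through the wild-type value of 306, and its log2 fold change of −0.10 (SE 0.11, exact permutation p = 0.114) became 0.03 with equal totals. Arfgap3, which switches Arf1 off on COPI vesicles, had 970.4, 696, 826 and 895 in Daxx deleted libraries, against 816, 811, 1000.1 and 737 in wild-type libraries. Its log2 fold change of 0.01 (SE 0.13) lay far inside that spread. Kdelr3 averaged 127 ± 25.4 in Daxx deleted and 133 ± 20.5 in wild-type libraries, and Gbf1 averaged 729.7 ± 71.3 and 720.1 ± 51.2. Exons of Kdelr3 overlap those of Ddx17, which averaged 962 normalized counts, on the opposite strand. The same holds for Copa with Ncstn (209), Golga2 with Swi5 (229), Gorasp2 with Tlk1 (206), Tmed5 with Mtf2 (41.2) and Arf4 with Pde12 (38.0). The library kit keeps strand, but the strand setting of the counting is not stated, so the counts of these 6 members are less certain. Other members overlap genes for which no level was available. Tmed7 overlaps Ticam2 and Stx5a overlaps Mir6992, both on the same strand. Sec23a, Sec24c, Preb, Tmed10, Copg1, Gbf1 and Gosr2 overlap such genes on the opposite strand. The same caution applies to their counts.

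The 5 genes of Rab1 and the tethers, which capture arriving vesicles, had log2 fold changes from −0.09 to 0.04, with 3 above and 2 below 0. Rab1a had 796, 756, 584 and 634 in Daxx deleted libraries, against 791, 591, 639 and 946 in wild-type libraries. The genotypes overlapped between 591 and 796, with the lowest value in Daxx deleted and the highest in wild type. The log2 fold change of −0.09 (SE 0.15) became 0.04 with equal totals. Rab1b had 206, 203, 241 and 226 in Daxx deleted libraries, against 193, 232, 238 and 189 in wild-type libraries, with a log2 fold change of 0.04 (SE 0.13). Gorasp2, a Golgi stacking protein, had 852, 1019, 768 and 756 in Daxx deleted libraries, against 905, 715, 874 and 951 in wild-type libraries. Its log2 fold change was −0.02 (SE 0.12), and 0.10 with equal totals.

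The 5 SNAREs, which fuse the vesicle with its target membrane, had log2 fold changes from −0.13 to 0.20, with 2 above and 3 below 0. Ykt6 (chr11:5955693-5967780) had 246, 221, 222 and 294 in Daxx deleted libraries, against 189, 219, 221 and 223 in wild-type libraries. The 2 lowest Daxx deleted values fell among the wild-type values, and the log2 fold change was 0.20 (SE 0.13, 95% interval −0.08 to 0.47, exact permutation p = 0.143). Bet1 had 149.7, 165, 118 and 191 in Daxx deleted libraries, against 167, 150.0, 153 and 208 in wild-type libraries, with a log2 fold change of −0.13 (SE 0.16). Stx5a had 392.3, 327, 331 and 359 in Daxx deleted libraries, against 332, 321, 385 and 314 in wild-type libraries, with a log2 fold change of 0.06 (SE 0.12). Neither of these separated the genotypes.

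A wider list of 111 other genes of the route gave the same picture. Of these, 108 were in the table, 106 were tested and 0 were called, and 55 lay above and 51 below 0 with a median log2 fold change of 0.00. At an unadjusted p of 0.05 there were 2, beside the 2.88% of all tested genes. Sec16b, the less abundant partner of Sec16a, had 36.1, 9.996, 11.5 and 52.5 normalized counts in Daxx deleted libraries, against 39.7, 52.2, 49.7 and 39.8 in wild-type libraries. Its low values were in Daxx deleted replicates 2 and 3, while replicate 4 was the highest of the 8. The log2 fold change was −1.01 (SE 0.41, unadjusted limma p = 0.0267, adjusted p = 0.9997, exact permutation p = 0.171). Tmed8, named as a relative of the p24 genes, had 43.4, 38.3, 37.5 and 51.4 in Daxx deleted libraries, against 80.2, 50.9, 43.8 and 66.4 in wild-type libraries, with a log2 fold change of −0.46 (SE 0.21, adjusted p 0.9997 by limma). Its genotypes overlapped.

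Trappc12, a subunit of the TRAPP tethering complex, was the 1 gene of the 106 whose genotypes did not overlap, beside 1.87% of all tested genes. It had 110.5, 99.96, 114 and 111 in Daxx deleted libraries, against 115, 120.0, 119 and 132 in wild-type libraries. The log2 fold change was −0.16 (adjusted limma p = 0.9997, exact permutation p = 0.0286). By list, median log2 fold changes were −0.03 in the 18 other COPII genes, 0.03 in the 23 COPI and retrograde genes and −0.05 in the 19 cargo receptors and Yip proteins. They were −0.01 in the 21 TRAPP and COG tethers and 0.05 in the 25 golgins and Golgi SNAREs. The remaining genes among the 2 with the smallest p in each list were Pdcd6 at −0.30, Rer1 at −0.20, Yipf4 at −0.34, Yif1b at −0.28, Trappc9 at 0.23, Golga7 at −0.30 and Gcc2 at 0.33.

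While the genotypes did not separate them, the average level of the members differed from mouse to mouse, mostly through the members of lower GC content in 3 of the libraries. The mean of their log2 deviations from each gene's own mean was 0.04, 0.00, −0.13 and 0.08 in Daxx deleted replicates 1 to 4, and 0.00, −0.13, 0.04 and 0.09 in wild type replicates 1 to 4. The same mean over all tested genes lay between −0.02 and 0.01. Daxx deleted replicate 3 and wild type replicate 2 were thus the low libraries, and replicate 4 of each genotype the high ones, singled out after these values were seen. One of the low pair held the lowest value for 23 of the 50 members (46%), against 30.6% of all tested genes. Both were the lowest pair for 14 members (28%), against 9.94% of all tested genes. These 14 were Sar1a, Sar1b, Sec13, Sec23b, Sec24a, Lman1, Tmed7, Tmed11, Copb1, Copb2, Arcn1, Kdelr3, Uso1 and Rab1a, from 5 of the 6 roles. The highest value was in replicate 4 of either genotype for 29 members (58%), against 28.0% of all tested genes.

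**Figure D4:**
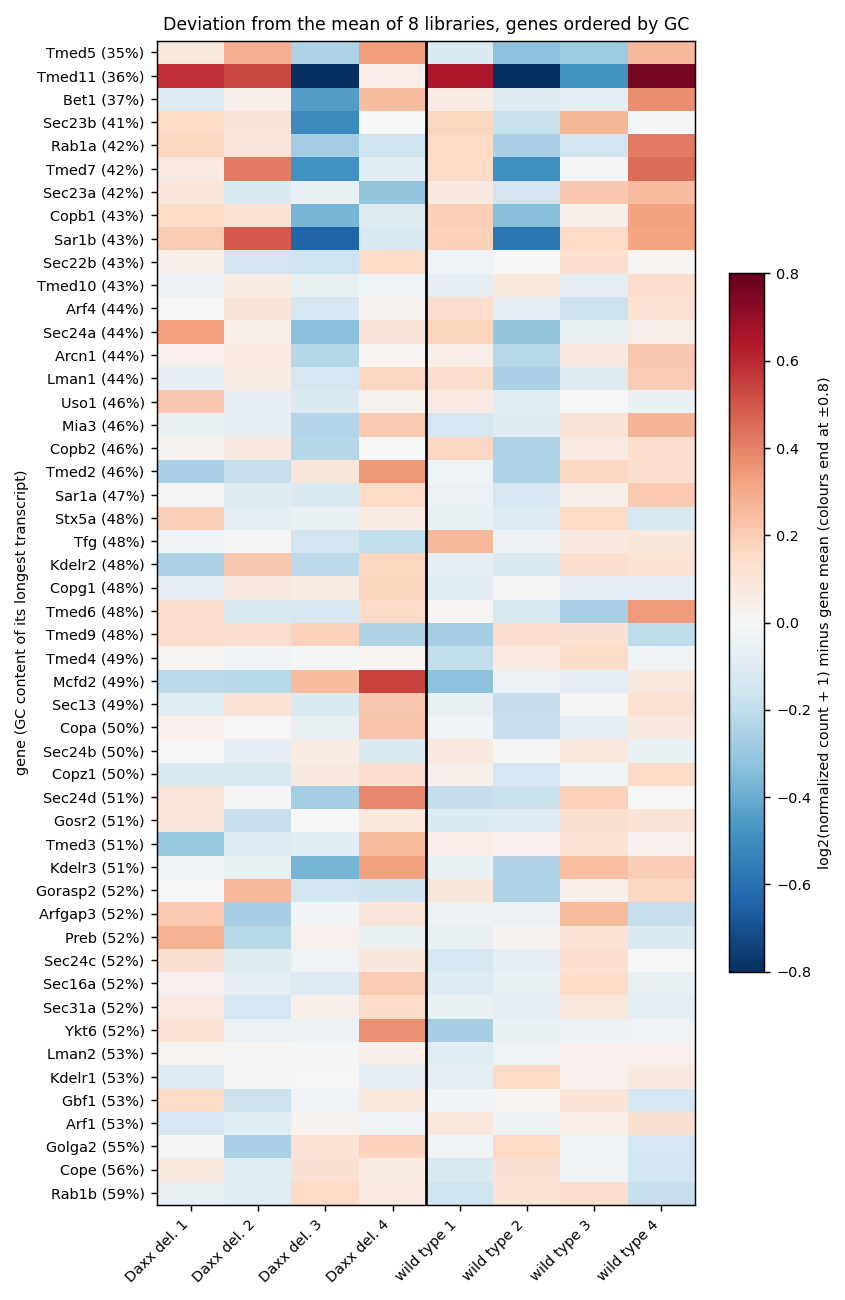
Heat map of the log2 deviation of each of the 50 members (rows, ordered from low to high GC content) from its own mean over the 8 libraries (columns, Daxx deleted left of wild type), red above and blue below that mean. Blue cells gather in the upper rows of Daxx deleted replicate 3 and wild type replicate 2, whose mean over the members was −0.13 in both.

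The low libraries also stood apart in how read counts followed base composition. Over 10462 tested genes, Spearman's rho between a gene's log2 deviation and the GC content of its longest transcript was 0.455 in Daxx deleted replicate 3 and 0.435 in wild type replicate 2. It was −0.447 in wild type replicate 4, and the 5 libraries not named ranged from −0.33 to 0.14. Over the 50 members, whose GC content ran from 34.97 to 58.9%, rho was 0.681 in Daxx deleted replicate 3, 0.618 in wild type replicate 2 and −0.643 in wild type replicate 4. These are correlations across genes that share their libraries and are given as a description. The 25 members with the lower GC content averaged −0.25 in Daxx deleted replicate 3, −0.22 in wild type replicate 2 and 0.20 in wild type replicate 4, whereas the 25 with the higher GC content averaged −0.01, −0.03 and −0.01. Daxx deleted replicate 4, the other high library, went the other way, with 0.06 for the lower and 0.11 for the higher GC content. Tmed5 and Tmed11 had the lowest GC content of the 50, at 34.97 and 35.6%.

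With the GC trend of all genes taken out of each library, the mean member deviation was 0.03, −0.04, −0.09 and 0.12 in Daxx deleted replicates 1 to 4, and −0.03, −0.08, 0.03 and 0.06 in wild type replicates 1 to 4. Daxx deleted replicate 3 and wild type replicate 2 thus remained the low libraries, and replicate 4 of each genotype the high ones. The low pair then held the lowest value for 23 of the 50 members, against 29.1% of all tested genes, and replicate 4 of either genotype the highest for 28, against 30.7%. No member was called after this correction, or with both low libraries left out.

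**Figure D5:**
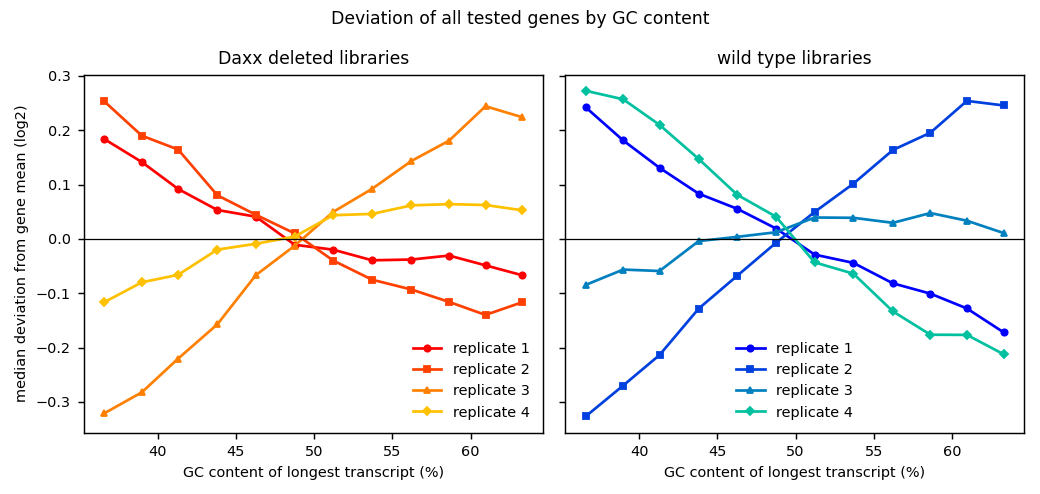
Median log2 deviation of all tested genes from their own mean, in bins of the GC content of the longest transcript (percent), with 1 line per library, the Daxx deleted libraries in the left panel and the wild-type libraries in the right panel. The lines of Daxx deleted replicate 3 and wild type replicate 2 climb with GC content (Spearman's rho 0.455 and 0.435), and that of wild type replicate 4 descends (−0.447).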

How the data were processed

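RNA from pancreas of 4 Daxx deleted and 4 wild-type mice was sequenced. Per the submitters' processing notes, reads were aligned to GRCm38 with STAR 2.6.0b and normalized with DESeq2. No read counter, strand setting or gene filter is given in the sources used here. Every gene of the table, however, had at least 5 reads in at least 4 of the 8 libraries. Percentiles of level are thus ranks among such genes, and a gene absent from the table may still have had a few reads. The deposited values are a signal per gene, namely read counts divided by a size factor, and whole reads were recovered from every value within 0.001. Genes were matched to GENCODE M21 by identifier, 11112 of 11789 with version and 11781 without. The members and the gene lists were chosen with earlier results of these data known.

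The 10468 genes with a mean of at least 10 normalized counts were tested and 1321 were left out. The test was limma 3.58.1 (R 4.3.3) with a variance trend on log2(normalized count + 1), with genotype as the only term, two-sided, and Benjamini-Hochberg adjustment over all tested genes. A gene was called at an adjusted p below 0.05. Fold changes on this scale understate changes of low genes. Single values were also compared by an exact two-sided permutation test over the 70 relabellings. Named genes were Daxx, the 2 members of each role with the smallest p and the one with the most counts, and the 2 genes with the smallest p in each further list, plus any called gene and any member without overlap. Sec23b, Sar1b, Sec24a, Lman1, Lman2, Tmed11, the beta and delta COPI subunits, Kdelr3 and Gbf1 were described after their values were seen, or for their promoters.

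Alternatives were pseudocounts of 0.5 and 8, TMM, equal totals, no filter, a mean of at least 50, robust moderation, edgeR 4.0.16 and DESeq2 1.42.0 on recovered read counts, and each library left out. The scripts were tested on simulated data. Removal of a GC trend, omission of both low libraries and transcript length for shares were added after the data were seen.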

Additional observations from a re-analysis of the deposited data

Results flagged for a closer look

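In 5 of 122 sets of 4 libraries, the highest or lowest value stood apart from the rest by Dixon's test at the 95% level, where chance alone gives about 6.1. Sec16a had 1419 normalized counts in wild type replicate 3, against 1193 to 1231 in the other wild-type libraries. Sec31a had 1365 in the same library, against 1224 to 1245 in the others. Copg1 had 772 in wild type replicate 2, against 725 to 728, and Ykt6 had 189 in wild type replicate 1, against 219 to 223. Tmed9 had 121 in Daxx deleted replicate 4, against 157 to 162 in the other Daxx deleted libraries.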

How the results depend on the processing

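The number of transport genes called was 0 under every alternative run, and the number of other genes of the route was 0 as well. Over all tested genes the number called was 0, and 1 with equal library totals, robust moderation, DESeq2 or without Daxx deleted replicate 2. The median log2 fold change of the members was 0.00, between −0.04 and 0.03 with each library left out, and 0.12 with equal totals, where the median of all genes was 0.11 and 3 members (Copg1, Ykt6 and Mcfd2) had an unadjusted p below 0.05, as Tmed3 did without Daxx deleted replicate 4. Of 530 comparisons for named genes, 509 kept their direction and 21 turned it. With equal totals the log2 fold change became 0.0117 for Arf1, 0.0272 for Kdelr1, 0.0373 for Rab1a and 0.0989 for Gorasp2. With each library left out it ran from −0.0692 to 0.131 for Tmed6, −0.0615 to 0.0984 for Arfgap3, −0.186 to 0.0395 for Rab1a, −0.00979 to 0.0986 for Rab1b and −0.115 to 0.0282 for Gorasp2. Among genes that kept their direction it ran from 0.03 to 0.29 for Mcfd2, −0.23 to −0.0035 for Bet1, 0.0085 to 0.12 for Stx5a and 0.02 to 0.11 for Sec31a. No paired analysis was possible because the replicate numbers follow accession order and link no mice across genotypes. How reads of overlapping genes were assigned, and the sex of each library, are not stated.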
